A study of Mus musculus with 9 samples.

Results

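The 3 libraries described here carry the column headers L1, L2 and L3 in the deposited count tables and the titles S1007, S1008 and S1009. They are 3 of the 9 libraries of the series and were chosen by those headers alone. The labels give each as pyramidal neurons of the hippocampus, from male C57BL/6 mice with a Camk2a-Cre transgene, in which Cre is driven by the promoter of a gene of forebrain excitatory neurons. The mice had received rAAV5-DIO-mCherry, an adeno-associated virus whose red fluorescent reporter is switched on only where Cre is present. The study used doses of 2.88e+08, 2.88e+09 and 2.88e+10 vector genomes, took the lower dose as its default control, and had 3 groups with 3 biological replicates each. No label ties a library to a dose, so the dose behind L1, L2 and L3 is not known here, and nothing further was given on whether each came from 1 animal or a pool. After 3 weeks, hippocampi were cut from 300 um slices and digested with papain, DAPI-positive dead cells were excluded, and fluorescent cells were sorted. Because the libraries have no labelled group, values are given library by library, with no mean, spread or test, and all 3 samples share the transgene, the vector and the sort.

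Pyramidal neurons are the excitatory projection cells of the hippocampus. They release glutamate, are arranged in the fields CA1, CA2 and CA3, and receive input from granule neurons of the dentate gyrus and from several classes of GABA-releasing interneurons. Subclasses of both kinds are told apart by transcription factors, neuropeptides and calcium-binding proteins, and their excitability by the ion channels and receptors they make. Immediate early genes are transcribed within minutes of strong synaptic input or handling of the tissue, largely through the factors CREB and SRF.

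The deposited counts summed to 15371545 in L1, 16299235 in L2 and 16937257 in L3, so 3 counts, the limit that a count of 0 allows, correspond to 0.195, 0.177 and 0.185 CPM (counts scaled to library size). At least 1 count was found for 19261, 20255 and 17906 genes, and 12281 genes reached 1 CPM in all 3 libraries, 11154 of them protein coding. Protein-coding genes held 97.3%, 97.3% and 97.0% of the counts, and genes of the mitochondrial genome 0.482%, 0.610% and 0.756%. The 10 most counted genes held 5.44%, 5.17% and 6.33%. The label of male mice fitted the transcripts: Xist, the RNA of the inactive X chromosome, had 0 counts in each library, and the Y-linked Ddx3y stood at 74.9, 76.2 and 52.2 CPM. Intervals given here cover counting error only, since the reads carry no molecular identifiers.

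Ranked by the median of the authors' deposited FPKM (counts per length and depth), the calmodulin gene Calm2 led with 6762 FPKM in L1, 5530.2 in L2 and 7569.9 in L3. It was followed by Fth1, the heavy chain of ferritin, with 3114, 2665 and 3739 FPKM. Tmsb4x, which binds actin monomers, had 2872, 2312 and 3602 FPKM. L3 was the highest and L2 the lowest library for each of these 3 genes. Nrgn, a calmodulin-binding protein of pyramidal neuron dendrites, had 1936, 1546 and 2771 FPKM, in the same order of libraries. Cpe, which trims neuropeptide precursors, was nearly level at 1804, 1797 and 1882 FPKM. Prnp, the prion protein, and Actb, the cytoplasmic actin, followed with 1391, 1697 and 1829 FPKM and 1300.2, 1466 and 1662 FPKM. Cck, the precursor of cholecystokinin, a peptide of both pyramidal neurons and interneurons, had 1188, 1133 and 1707 FPKM. Among long noncoding RNAs, Malat1, a nuclear RNA, had 1331, 1216 and 1688 FPKM. Of all genes, 22 in L1, 21 in L2 and 29 in L3 reached 1000 FPKM, the larger number being in L3.

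**Figure D1:**
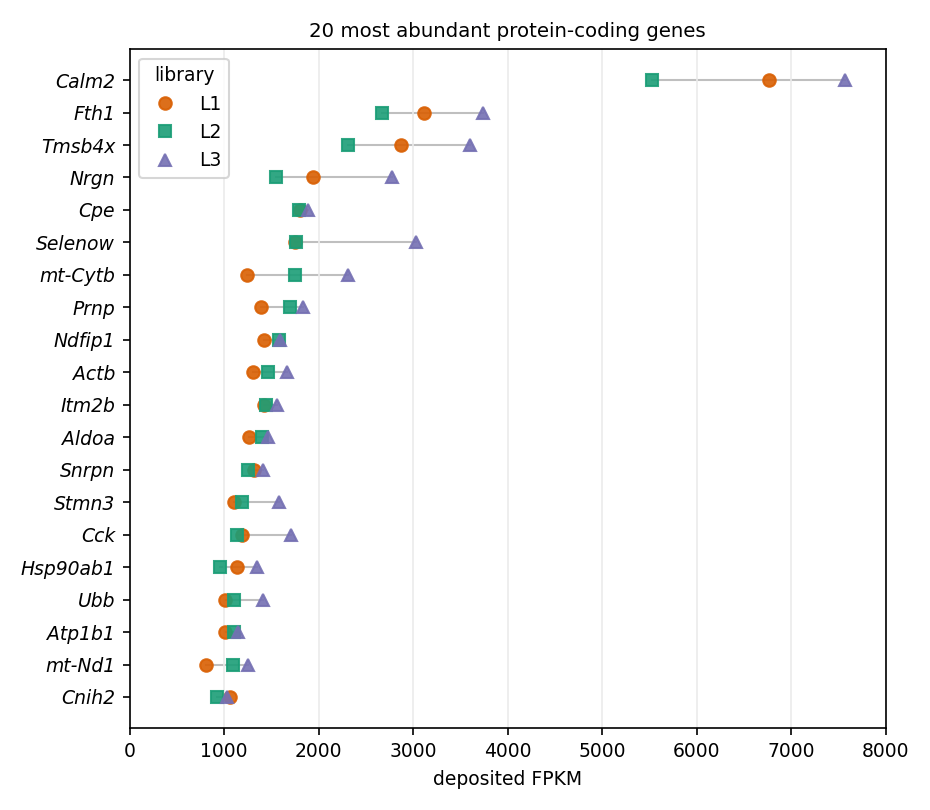
Deposited FPKM (horizontal axis, linear) of the 20 protein-coding genes with the highest median, 1 row per gene; the circle, square and triangle are L1, L2 and L3 and the grey line joins the lowest and highest. Calm2 stands apart at 5530.2 to 7569.9 FPKM, and L3 is the highest library in most rows.

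The genes that define hippocampal pyramidal neurons were present in each library. Slc17a7, the vesicular glutamate transporter VGLUT1, had 104, 109 and 103 FPKM, and Camk2a, the gene whose promoter drives Cre, had 77.2, 58.2 and 50.0 FPKM. Neurod6, a transcription factor of pyramidal neurons, had 499.8, 307 and 323 FPKM, and was highest in L1. A gene is called apart below when its highest and lowest libraries differ by at least 2-fold on the log2(CPM + 1) scale and its mean is at least 10 CPM. Over all 8941 genes that reached that mean, 541 (6.05%) were apart. Of the 18 pyramidal neuron genes, 17 reached the mean and 1, Rasgrf2, was apart, at 9.41 CPM in L1, 22.8 in L2 and 6.66 in L3. Rasgrf2 reached the mean only through L2, since L1 and L3 averaged under 10 CPM. None of the other 16 was apart.

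Markers of CA1 were abundant. Of 18 listed CA1 genes, 17 reached 1 FPKM in every library. Spink8, a secreted protease inhibitor, had 468, 314 and 437 FPKM. Fibcd1, a chitin-binding membrane protein, had 45.5, 82.1 and 73.7 FPKM. Wfs1, a protein of the endoplasmic reticulum membrane that marks CA1, had 133, 54.3 and 70.8 FPKM. Dcn and Ccn3, both secreted matrix-associated proteins, had 16.6, 54.3 and 94.3 FPKM and 38.5, 48.4 and 317 FPKM. Spink8 and Wfs1 were highest in L1, Fibcd1 in L2, and Dcn and Ccn3 in L3, so the CA1 genes did not share one order of libraries. Wfs1, Dcn and Ccn3 were the 3 of 17 CA1 genes apart.

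Some markers of CA2 and CA3 were abundant and others near 0. Rgs14, which limits plasticity in CA2, had 86.3, 90.3 and 101 FPKM, but Map3k15, another CA2 gene, had 0, 0.03 and 0 FPKM and Avpr1b, the vasopressin receptor of CA2, 0.11, 0 and 0 FPKM. Pcp4, a calmodulin-binding peptide of CA2 that is also made by dentate granule neurons, had 101, 273 and 75.7 FPKM. Of CA3 genes, Bok, a BCL2-family member, had 10.6, 15.3 and 14.1 FPKM, and Coch, a secreted protein, 1.22, 0.31 and 1.18 FPKM. Of 6 CA2 genes that reached the mean, 2 were apart, Pcp4 and Stard5, a lipid-binding protein at 12.7, 27.1 and 11.3 CPM, both highest in L2. Of 8 CA3 genes, 1 was apart, Homer3, a scaffold of metabotropic receptors, at 7.14, 18 and 11.8 CPM. Homer3 reached the mean only through L2, and none of the 6 CA3 genes that did not depend on 1 library was apart. Listed genes of all 3 fields were present in each library, those of CA2 and CA3 only in part. Whether neurons of CA2 and CA3 were among the sorted cells was not tested.

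Ionotropic glutamate receptor genes were present in each library. Of 12 AMPA receptor and auxiliary subunit genes that reached the mean, none was apart, and the same held for 4 NMDA receptor genes; at the 6.05% of all genes, lists this short need not hold any. The median difference between highest and lowest library was 0.29 and 0.59 on the log2(CPM + 1) scale, against 0.41 over all genes. Gria1 and Gria2, the main pore subunits of fast glutamate receptors, had 182, 167 and 151 FPKM and 122, 114 and 104 FPKM. Gria4, a subunit of interneurons, was far lower at 3.01, 3.30 and 1.65 FPKM. The auxiliary protein Cnih2, which slows AMPA receptor closing, exceeded every pore subunit at 1058, 922 and 1028 FPKM. Grin1, the obligatory NMDA receptor subunit, had 26.4, 27.3 and 31.4 FPKM. Its partners Grin2a and Grin2b had 38.1, 28.4 and 22.7 FPKM and 25.2, 20.8 and 27.1 FPKM. Grin2a was highest and Grin2b intermediate in L1.

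Among GABA-A receptor subunits, Gabra5, the subunit of tonic currents in CA1, was the most abundant at 215, 222 and 179.8 FPKM. Gabra2, a subunit of synapses on the initial segment of the axon, had 63.6, 72.8 and 76.9 FPKM, and was highest in L3, where Gabra5 was lowest. Of 11 such genes with the minimum mean, 1 was apart, Gabrd, an extrasynaptic subunit abundant in dentate granule neurons, at 20.1, 28.1 and 12.3 CPM. Of the modulatory receptors, Chrm1, the muscarinic receptor of pyramidal neurons, had 45.6, 46.3 and 40.2 FPKM, and Cnr1, the cannabinoid receptor, 37.6, 48.2 and 31.7 FPKM. Htr1a, the inhibitory serotonin receptor, had 15.7, 11.7 and 8.79 FPKM. Mchr1, the receptor of melanin-concentrating hormone, had 49.1, 36.2 and 31.2 FPKM, while the gene of its ligand, Pmch, made in the hypothalamus, had 0 counts in each library. For metabotropic glutamate receptors and their scaffolds, 3 of 8 genes with the minimum mean were apart, against 6.05% of all genes. Grm5, which couples to calcium release, was level at 234, 285 and 274 CPM, and Grm2, a presynaptic receptor of dentate granule neurons, stood at 14.9, 35.4 and 10.5 CPM. The high value was in L2, as it was for Homer3, which was 1 of the 3 and reached the minimum mean only through L2. Grik1, a kainate receptor subunit of interneurons with 12.3, 14.1 and 0.740 CPM, was under the minimum mean and low only in L3.

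Of the voltage-gated sodium and calcium channel genes, 0 of 11 and 0 of 13 were apart, with median differences of 0.34 and 0.50, again near the share and median of all genes. The sodium channel auxiliary subunit Scn2b had 145, 141 and 115 FPKM, and the pore subunits Scn2a, Scn8a and Scn1a had 22.4, 27.0 and 22.8 FPKM, 12, 11.7 and 13.7 FPKM, and 7.91, 7.31 and 6.75 FPKM. This order, Scn2a above Scn8a above Scn1a, was the same in each library. Cacna1e, the R-type calcium channel, had 7.34, 6.66 and 8.90 FPKM, and Cacna1a, the P/Q-type channel, 1.62, 1.33 and 1.99 FPKM. Of 32 voltage-gated potassium channel and auxiliary genes with the minimum mean, 4 (12.5%) were apart, against 6.05% of all genes. Kcnab1, a cytoplasmic beta subunit, had 49.6, 31.9 and 30.4 FPKM, and Kcnd2, the A-type channel of dendrites, 29.8, 21.9 and 23.7 FPKM. Kcnf1, an electrically silent modulatory subunit, had 31.7, 37.4 and 11.0 CPM, and Dpp10, an auxiliary subunit of A-type channels, 21.8, 24.1 and 6.85 CPM. Both were low in L3. Hcn2, a hyperpolarisation-activated channel, had 1.79, 1.86 and 2.68 FPKM.

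**Figure D2:**
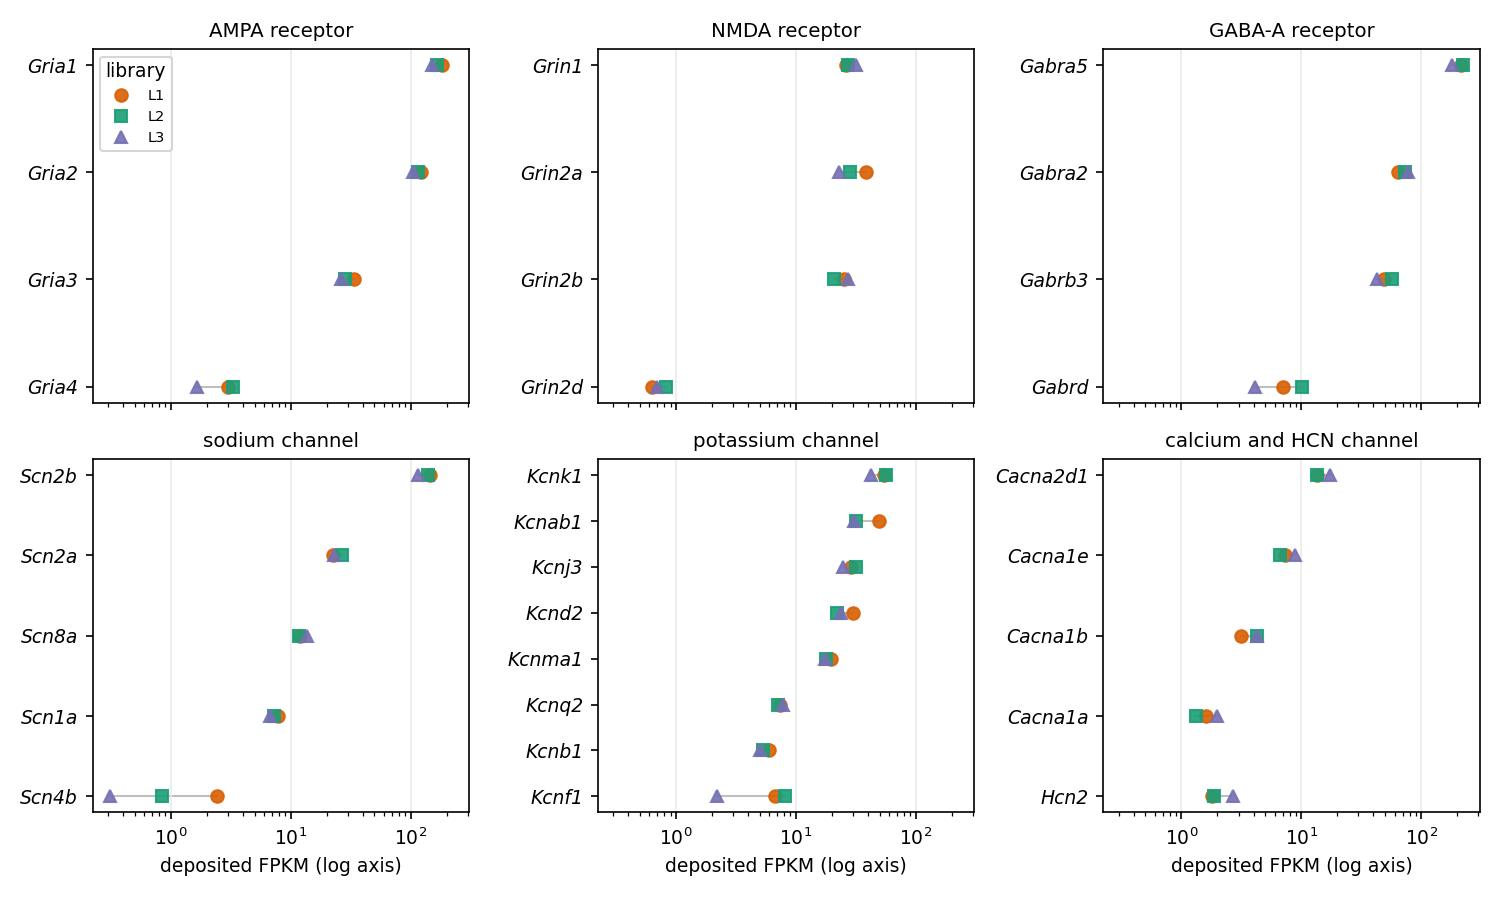
Deposited FPKM (horizontal axis, log scale) of selected receptor and channel genes in L1 (circle), L2 (square) and L3 (triangle), in 6 panels by family. For most genes the 3 symbols nearly coincide, while Gabrd, Kcnf1 and Scn4b spread, each lowest in L3; Scn4b has 2.43, 0.84 and 0.31 FPKM.

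Of 30 synaptic vesicle genes with the minimum mean, 2 (6.67%) were apart, Cplx3 and Rph3a, a share near that of all genes. Snap25, a core protein of vesicle fusion, had 621, 607 and 639 FPKM, and Syp, the vesicle protein synaptophysin, 256, 294 and 239 FPKM. Rph3a, a vesicle effector of Rab3, had 59.6, 89.5 and 27.6 CPM. Cplx3, a complexin, had 26.1, 75.3 and 61.5 CPM. The low library was L3 for Rph3a and L1 for Cplx3. Of 31 postsynaptic genes, 2 (6.45%) were apart, and their median difference was 0.55.

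Of 61 forebrain and pyramidal transcription factors, 50 reached the minimum mean and 4 (8%) were apart, against 6.05% of all genes. Behind Neurod6, the most abundant by median FPKM were Lmo4 (72.6, 72.6 and 61.8), a LIM-domain cofactor, Klf9 (70.8, 59.2 and 64.2), a glucocorticoid-responsive factor, and Lmo3 (83.5, 58.5 and 61.5). Pou3f1, a POU factor of CA1, had 63.1, 46.3 and 59.1 FPKM, and Fezf2, a factor of excitatory projection neurons, 48.3, 33.7 and 33.6 FPKM. Nr3c2, the mineralocorticoid receptor of hippocampal neurons, had 36.6, 24.7 and 28.7 FPKM. Zbtb18, a zinc-finger repressor, was highest in L3, at 159.8, 121 and 238 CPM. Rest, the repressor of neuronal genes outside neurons, was lowest in L3, at 17.6, 10.7 and 3.09 CPM. It was among the 4 apart and reached the minimum mean only through L1. Of 24 factors of the inhibitory lineage, only 6 reached the minimum mean. Of the 6, 5 were apart, against 6.05% of all genes. All 6 were highest in L2, as were 2256 of all 8941 genes. Prox1 was 1 of the 5 apart and reached the minimum only through L2. Lhx6, which specifies interneurons of the medial ganglionic eminence, had 14.2, 37.9 and 6.36 CPM. In bulk samples such as these, fewer cells of a type and less RNA per cell cannot be told apart.

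Across all genes, the median difference between the highest and lowest library was 0.41 on the log2(CPM + 1) scale, and 6416 genes (71.8%) stayed within 1.5-fold. At least 4-fold separated the libraries for 58 genes and at least 8-fold for 14. Between pairs, 219 genes were 2-fold apart for L1 and L2, 305 for L1 and L3 and 250 for L2 and L3. Pearson correlations across these genes were 0.964, 0.955 and 0.958, a description over genes, which are not independent. The libraries differed by more than counting noise, with a chi-square per degree of freedom of 27.2, 38.9 and 36.6 over genes with at least 10 counts. L1 alone was at least 2-fold above both others for 29 genes (0.324%) and below both for 48 (0.537%). L2 alone was above for 47 (0.526%) and below for 19 (0.213%). L3 alone was above for 17 (0.19%) and below for 73 (0.816%). Each library therefore had its own set, and L3 had the most genes that were low alone. L1 too had more low than high genes. At a minimum mean of 30 CPM, as given below, L3 no longer had the most low genes.

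The widest difference of all was that of Vip, the precursor of vasoactive intestinal peptide, a product of interneurons of the caudal ganglionic eminence that mostly inhibit other interneurons. Vip (chromosome 10, 5639218 to 5647617, GRCm38) had 158 CPM in L1, 0.294 in L2 and 0.555 in L3, from 2437, 5 and 9 counts. L1 exceeded L2 by 537-fold, with an exact 95% counting interval of 230 to 1656. Only L1 was above 1 CPM, and the deposited FPKM were 46.6, 0.09 and 0.16. Pvalb, the calcium-binding protein of fast-spiking interneurons, was also highest in L1, at 19.5, 1.06 and 0 CPM, which makes L1 at least 105-fold higher than L3. Of other genes found in Vip interneurons, Calb2, calretinin, had 0, 4.18 and 0.123 CPM, and Htr3a, the serotonin-gated channel, 14.7, 27.2 and 23.6 CPM. Both were highest in L2, while Penk, the enkephalin precursor, was highest in L1 at 400.2, 207 and 317 CPM. Of the 14 genes of the caudal ganglionic eminence list with the minimum mean, 2 were highest in L1.

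L1 also held the highest levels of immediate early genes. Of 38 listed genes, 29 reached the minimum mean and 14 (48.3%) were apart, against 6.05% of all genes. Of the 29, 21 were highest in L1, as were 3177 of all 8941 genes. In L1, 8 were at least 2-fold above both other libraries, against 29 (0.324%) of all genes. Egr1, a zinc-finger factor of plasticity, had 1125 CPM in L1, 304 in L2 and 358 in L3. Nr4a1, an orphan nuclear receptor, had 334, 84.0 and 55.5 CPM, and Fos, a subunit of AP-1, 119, 36.5 and 15.4 CPM. For these 3 genes L1 lay far above the pair L2 and L3. Egr2, a relative of Egr1, had 30.5, 3.89 and 2.34 CPM, a ratio of 13.0 between L1 and L3 with a counting interval of 9.33 to 18.6. Egr2 reached the minimum mean only through L1. Of the other 28 genes, 13 were apart and 20 were highest in L1. Dusp5, which is outside the list, is a nuclear phosphatase of ERK that is itself induced by ERK, and had 68.1, 18.5 and 12.3 CPM. Arc, whose protein acts at synapses, had 199.6, 104 and 78.2 CPM, and Junb 287, 157 and 154 CPM. Bdnf, the neurotrophin gene, had 178, 108 and 128 CPM and was not apart. The set did not move as one: Jun, another AP-1 subunit, was highest in L3 at 40.0, 50.0 and 69.0 CPM, as was Klf6, a zinc-finger factor, at 57.9, 70.4 and 74.8 CPM. Npas4, which is induced by calcium entry, was lowest in L3, at 5.58, 5.24 and 0.802 CPM. The summed level of the list was 4083 CPM in L1, 1999.5 in L2 and 2159 in L3.

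Promoter sequence was available for part of these genes, and is shown to set the binding motifs of CREB and SRF beside the levels. The 250 bases before the start were taken from RefSeq (GRCm38.p6), 5' to 3' on the gene's strand. Capitals mark the CREB half-site, TGACG or its reverse complement CGTCA, and the CArG box of SRF, each searched in both orientations. The half-site occurred in 17.8% of all 32851 windows of this length, the full CRE TGACGTCA, which holds a half-site on each strand, in 1.55%, and the CArG box in 1.47%. The 3 genes below lie at chr12:85473640-85473889, chr15:101266596-101266845 and chr19:53528895-53529144, all on the plus strand.
Fos: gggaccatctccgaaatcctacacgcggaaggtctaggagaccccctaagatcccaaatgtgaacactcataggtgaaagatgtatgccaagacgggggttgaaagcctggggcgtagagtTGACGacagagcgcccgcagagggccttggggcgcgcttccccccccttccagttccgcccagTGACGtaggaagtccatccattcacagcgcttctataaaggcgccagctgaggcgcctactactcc
Nr4a1: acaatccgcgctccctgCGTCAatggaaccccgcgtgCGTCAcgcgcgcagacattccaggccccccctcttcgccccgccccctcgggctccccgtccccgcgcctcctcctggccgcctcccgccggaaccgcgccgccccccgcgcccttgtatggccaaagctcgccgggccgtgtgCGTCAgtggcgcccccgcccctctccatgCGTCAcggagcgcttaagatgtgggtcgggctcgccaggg
Dusp5: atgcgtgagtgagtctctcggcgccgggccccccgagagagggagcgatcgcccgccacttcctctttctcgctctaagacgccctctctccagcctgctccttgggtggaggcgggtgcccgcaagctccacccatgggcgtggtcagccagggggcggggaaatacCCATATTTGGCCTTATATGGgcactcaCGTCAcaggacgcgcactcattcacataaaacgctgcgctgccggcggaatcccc
Fos held 2 half-sites, starting 129 and 66 bases before the start. Nr4a1 held 4, the nearest 40 bases before it. Dusp5 held 1 half-site and 2 adjoining CArG boxes, starting 82 and 72 bases before the start. Of the 30 immediate early genes in the table, a half-site was found in 6 of 7 that were at least 2-fold above both others in L1 and in 14 of the other 23. The CArG box was found in 1 of those 7 and in 0 of the 23, and the full CRE in 0 and 3. These count genes with a match in any of their windows, unlike the shares of windows above. Of all 27025 genes, 5347 held a half-site, 439 a CArG box and 478 the full CRE. Dusp5 is not in the immediate early list, so its boxes lie outside these counts. A match is a description of the letters and not of a bound site.

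**Figure D3:**
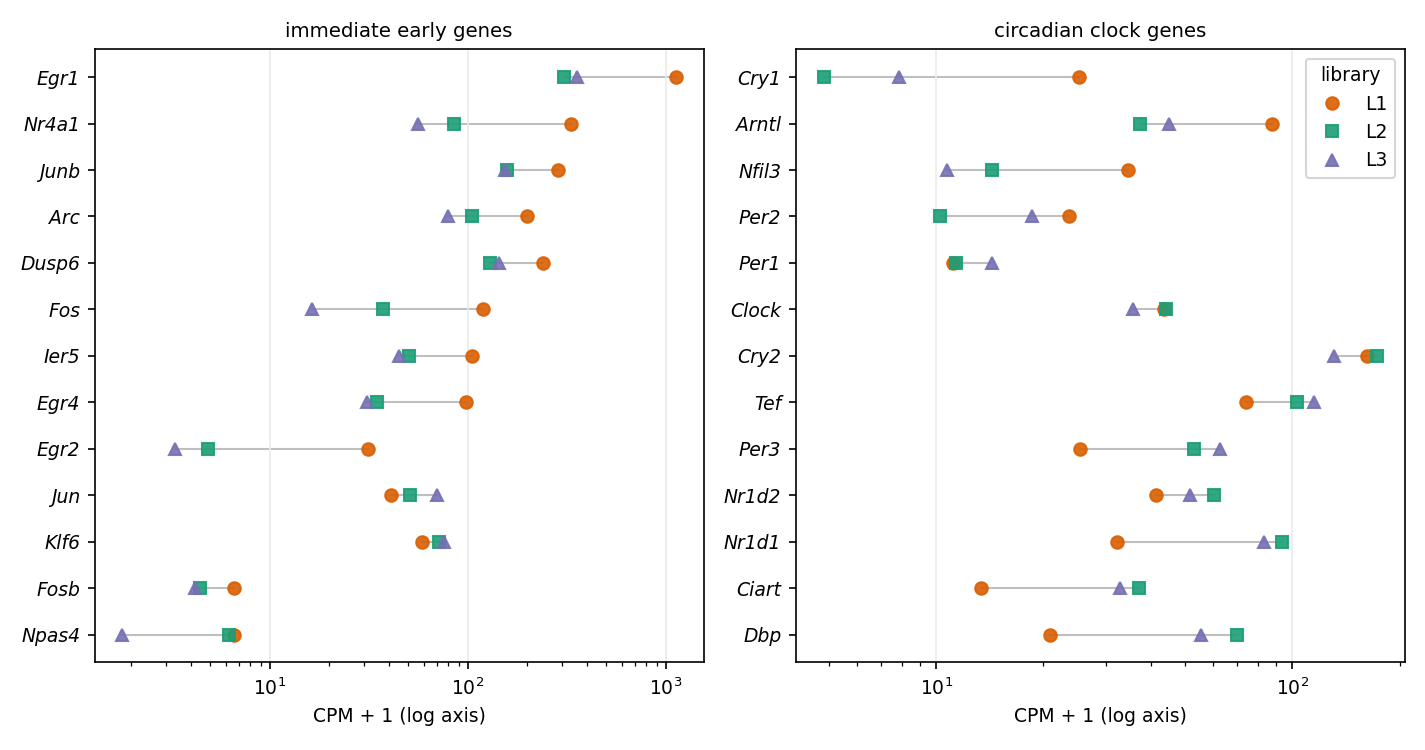
CPM plus 1 (horizontal axis, log scale) of immediate early genes (left) and circadian clock genes (right) in L1 (circle), L2 (square) and L3 (triangle). In the left panel L1 lies to the right for Egr1, Nr4a1, Fos and Egr2, while Jun and Klf6 have L1 to the left; in the right panel L1 is high for Cry1 and Arntl and low for Dbp, Nr1d1 and Ciart.

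Genes of the circadian clock also differed between libraries: 9 of 20 (45%) were apart, and 6.05% of all genes were. This list was chosen after the values were seen, so the 2 shares describe these data and test nothing. In L1, 2 were at least 2-fold above both other libraries and 4 below both, and in L2 1 was above both. Cry1, a repressor of the clock, had 24.2, 3.83 and 6.85 CPM and reached the minimum mean only through L1. Of the other 19 genes, 8 were apart. Arntl, the clock activator BMAL1, had 86.3, 36.3 and 44.0 CPM. Dbp and Nr1d1, direct targets of that activator, had 19.9, 68.7 and 54.3 CPM and 31.1, 92.6 and 82.3 CPM. Ciart, a further repressor, had 12.4, 36.0 and 31.8 CPM. L1 was thus high for Cry1 and Arntl and low for Dbp, Nr1d1 and Ciart, while Clock, the partner of Arntl, was level at 42.6, 43.1 and 34.6 CPM. The sources used here do not give the hour at which tissue was taken.

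The genes low in L1 alone included matrix and secreted proteins. Dcn, decorin, had 96.3, 304 and 575 CPM and Cxcl12, a chemokine, 2.92, 15.1 and 19.3 CPM. Nos1, neuronal nitric oxide synthase, which is made by interneurons and some pyramidal neurons, had 26.1, 76.6 and 89.6 CPM. L1 was the lowest library in all 3, and L3 the highest.

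Some genes of dentate granule neurons were highest in L2. Prox1, the transcription factor that holds granule neuron identity, had 1.69 CPM in L1, 25.1 in L2 and 4.26 in L3. C1ql2, a secreted organiser of mossy fibre synapses, had 5.19, 34.9 and 2.28 CPM. L2 exceeded the lowest library 14.9-fold for Prox1 (interval 10.0 to 23.1) and 15.3-fold for C1ql2 (10.9 to 21.9). Stxbp6, an inhibitor of vesicle fusion, had 3.76, 20.1 and 1.17 CPM, and Npnt, a matrix protein, 0.0649, 12.9 and 2.34 CPM. Dock10, a guanine nucleotide exchange factor, had 4.02, 19.0 and 1.60 CPM. Dsp, desmoplakin, had 0, 5.24 and 0.0617 CPM. Pdyn, the dynorphin precursor of granule neurons, had 0.519, 14.3 and 2.41 CPM. All 7 of these genes were highest in L2, but Pdyn is outside the dentate list and they do not stand for that list. Except for Prox1 and C1ql2, they were under the minimum mean. Prox1 is also a gene of interneurons of the caudal ganglionic eminence. Of the 16 listed dentate genes, 6 reached the minimum mean. Prox1 and C1ql2 reached it only through L2 and were apart. None of the other 4 was apart, and 2 of them were highest in L2. Over all 16 genes the summed level was 388 CPM in L1, 633 in L2 and 517 in L3. Calb1, calbindin, which CA1 neurons also make, was near level at 283, 378 and 406 CPM. Pcp4 and Synpr, both abundant in granule neurons, were highest in L2, with 64.8, 168 and 50.7 CPM and 62.9, 234 and 55.3 CPM.

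Most interneuron genes with the minimum mean were highest in L2, and many were lowest in L3. Of 10 pan-GABAergic genes with the minimum mean, 6 (60.0%) were apart, 8 were highest in L2 and 7 were lowest in L3. Of all 8941 genes, 2256 were highest in L2 and 2953 lowest in L3. Gad1 and Gad2, the enzymes that make GABA, had 340.1, 555 and 141 CPM and 147, 213 and 70.2 CPM. In both genes L1 lay between L2 and L3. Slc32a1, the vesicular GABA transporter, was at 1.30, 2.35 and 1.05 CPM, under the minimum mean, and Dlx1, a homeobox factor of interneurons, had 28.8, 34.5 and 17.6 CPM. Of genes of the medial ganglionic eminence, 9 of 13 (69.2%) were apart and 9 were lowest in L3. Erbb4, a member of both lists, reached the minimum mean only through L2. Of the others, 5 of 9 pan-GABAergic and 8 of 12 medial genes were apart. Of genes of the caudal ganglionic eminence, 7 of 14 (50.0%) were apart, 11 were highest in L2 and 6 were lowest in L3. Of those 7 apart, 3 genes, Prox1, Vip and Krt73, reached the minimum mean only through their highest library. The summed level of the caudal list went the other way, at 2801 CPM in L1, 2717 in L2 and 3226 in L3. That sum includes Cck, which pyramidal neurons also make.

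The peptides separated the libraries further. Sst, somatostatin, the peptide of dendrite-targeting interneurons (chromosome 16), had 491 CPM in L1, 499 in L2 and 81.1 in L3. L1 and L2 were alike and L3 was 6.15-fold lower than L2 (interval 5.81 to 6.53). Crhbp, which binds corticotropin-releasing hormone and is made in Sst interneurons, had 53.5, 50.5 and 2.78 CPM, a ratio of 19.3 (14.3 to 26.6). Elfn1, a synaptic protein of the same cells, had 4.28, 4.71 and 0 CPM. Npy, neuropeptide Y, was instead high in L2 alone, at 169, 438 and 175 CPM. The same pattern was shown by Pnoc, the nociceptin precursor, with 20.2, 67.9 and 17 CPM, by Nts, the neurotensin precursor, with 14.5, 47.8 and 22.0 CPM, and by Ndnf, a marker of neurogliaform cells, with 0.714, 19.7 and 0.802 CPM. Lamp5, another gene of those cells, had 128, 217 and 104 CPM. Krt73, a keratin, was low only in L3, at 14.3, 23.5 and 0.864 CPM. By contrast the peptide precursors Cck and Penk were not apart, Cck having 1545, 1418 and 2328 CPM. Thus Vip was high in L1, Npy, Pnoc and Nts in L2, and Sst low in L3, and no single ordering of the libraries covered them.

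The start regions of Vip, Sst and Nts are shown for the same motifs, at chr10:5638968-5639217 (plus strand), chr16:23890845-23891094 (minus strand) and chr10:102490419-102490668 (minus strand), again 250 bases from RefSeq (GRCm38.p6).
Vip: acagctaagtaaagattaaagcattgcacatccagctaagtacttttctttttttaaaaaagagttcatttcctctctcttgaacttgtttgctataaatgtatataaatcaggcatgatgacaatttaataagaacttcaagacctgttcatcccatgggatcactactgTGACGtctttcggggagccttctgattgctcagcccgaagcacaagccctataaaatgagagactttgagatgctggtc
Sst: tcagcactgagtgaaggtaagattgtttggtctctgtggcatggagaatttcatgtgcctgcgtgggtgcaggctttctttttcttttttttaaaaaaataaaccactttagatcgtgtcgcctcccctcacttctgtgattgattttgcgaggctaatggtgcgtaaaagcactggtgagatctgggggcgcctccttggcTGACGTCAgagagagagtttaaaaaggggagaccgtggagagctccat
Nts: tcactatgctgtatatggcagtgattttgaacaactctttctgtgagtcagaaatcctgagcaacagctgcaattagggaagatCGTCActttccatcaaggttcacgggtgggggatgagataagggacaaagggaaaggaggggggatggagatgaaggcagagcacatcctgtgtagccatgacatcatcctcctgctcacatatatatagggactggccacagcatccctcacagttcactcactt
Sst held the full CRE, its first base 48 bases before the start. Vip held 1 half-site, 79 bases before the start, and Nts 1. The 3 genes had different orders of libraries, high in L1, low in L3 and high in L2.

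**Figure D4:**
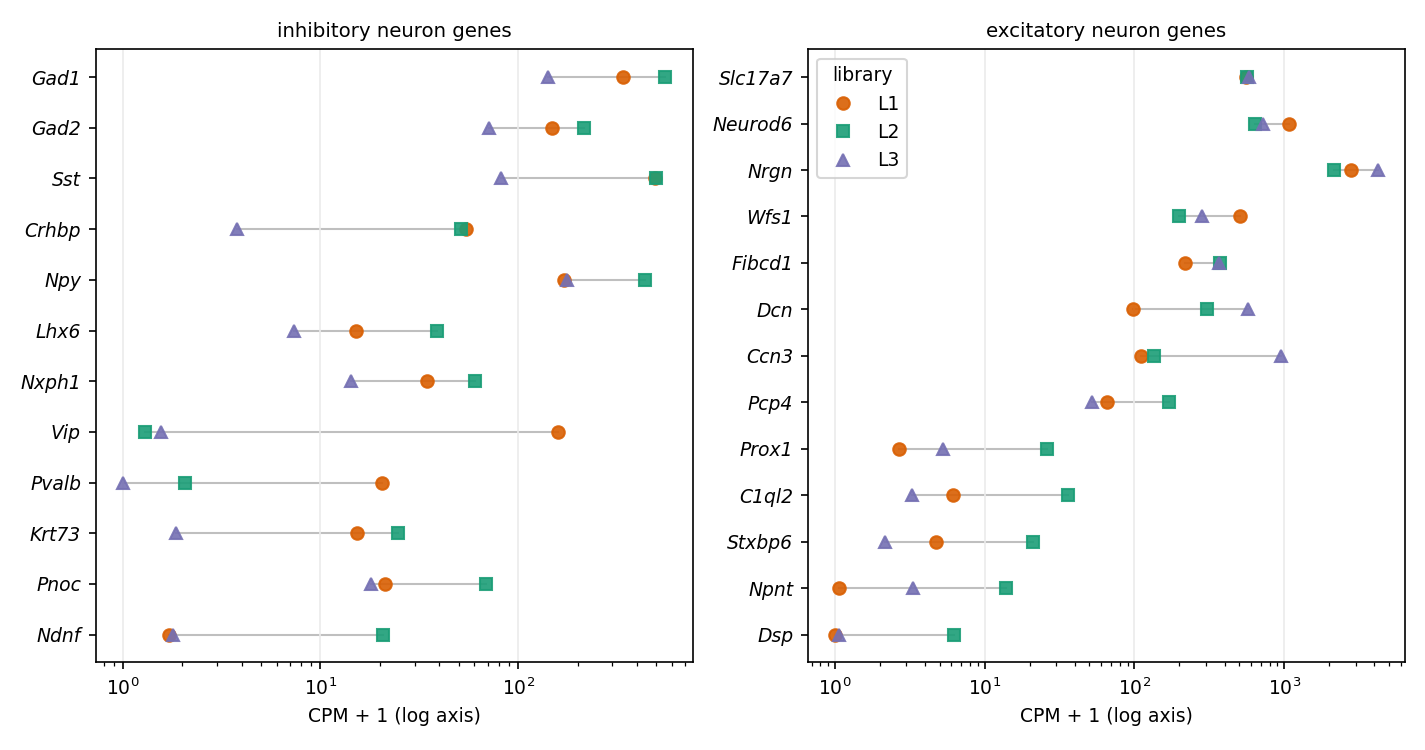
CPM plus 1 (horizontal axis, log scale) of inhibitory (left) and excitatory (right) neuron genes in L1 (circle), L2 (square) and L3 (triangle). L3 is the lowest library for Gad1, Sst and Crhbp, L1 alone is high for Vip, L2 alone for Npy, Ndnf, Prox1 and C1ql2, and Slc17a7 shows no gap.

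In L3 the gene farthest above both others was Ccn3, also called Nov, a secreted protein of the CCN family, with 110.2, 133 and 949 CPM. L3 exceeded L1 8.62-fold, with an interval of 8.20 to 9.07. Ccn3 was in the list of 11 genes graded along CA1. Of the 8 with the minimum mean, 5 (62.5%) were apart, against 6.05% of all genes. In that list Dcn and Grp, gastrin-releasing peptide, were also highest in L3, Grp at 57.0, 104 and 151 CPM, and Wfs1 was highest in L1, at 503, 197 and 280.3 CPM. Ndrg1, a stress-regulated protein, had 32.2, 98.8 and 219 CPM. Nrgn was highest in L3 too, at 2806, 2155 and 4208 CPM. Besides interneuron genes, those low in L3 alone included Cbln2, a synaptic organiser, at 23.0, 35.0 and 2.47 CPM, Afap1, an actin-linked protein, at 17.6, 21.7 and 1.60 CPM, and Chac1, a target of the integrated stress response, at 32.3, 33.0 and 8.76 CPM.

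L3 also differed by gene length. Among the 8667 protein-coding genes with the minimum mean, the length implied by count and FPKM was compared with each library's log2 difference from the mean of the other 2. For the 69 genes under 750 bases the median difference was 0.60 in L3, against -0.28 in L1 and -0.34 in L2. For the 508 genes from 750 to 1500 bases it was 0.40 in L3, -0.21 in L1 and -0.20 in L2. For the 2835 genes of 6000 bases or more it was -0.05, 0.07 and -0.02 in L3, L1 and L2. Spearman correlations with length over these genes, which share libraries and are given as a description, were 0.19 in L1, 0.12 in L2 and -0.26 in L3. Short genes were thus higher in L3, and long genes showed little shift. The part of length in the values of single genes was not tested.

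**Figure D5:**
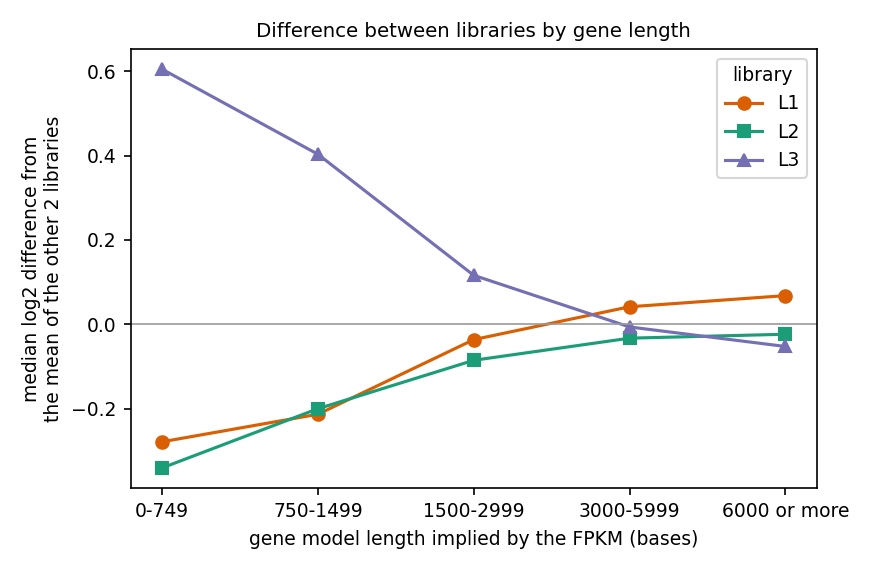
Median log2(CPM + 1) difference of each library from the mean of the other 2 (vertical axis) for protein-coding genes in 5 classes of length (horizontal axis, bases); the circle, square and triangle are L1, L2 and L3. The L3 line falls from 0.60 in the shortest class to -0.05 in the longest, and the L1 and L2 lines lie below 0 in the short classes.

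Most listed genes of cells other than neurons were under the minimum mean, but their levels differed between libraries. Of 19 microglia and macrophage genes, 5 reached the minimum mean and all 5 were apart, but 4 of them reached it only through L2, so this count follows in part from the minimum. The summed level of all 19 was 91.9 CPM in L1, 202 in L2 and 38.2 in L3. Lyz2, lysozyme, had 5.45, 32.5 and 4.13 CPM, C1qb, a complement subunit, 6.75, 22.8 and 2.9 CPM, and Csf1r, the receptor that microglia depend on, 3.50, 11.4 and 0.864 CPM. Of 14 astrocyte genes, 6 reached the minimum mean, 3 of them only through their highest library, and 4 were apart. Over all 14 the sums were 131, 299 and 171 CPM. Slc1a3, a glial glutamate transporter, had 4.87, 30.0 and 6.29 CPM, and Apoe, the lipid carrier of glia, 51.8, 257 and 71.3 CPM. Apoe is in neither list and was not low, at 24.3, 125 and 31.9 FPKM. In L2 it exceeded Slc17a7 on FPKM. L2 was the highest library for both sums, as it was for Prox1, C1ql2, Gad1, Gad2 and Npy above. The oligodendrocyte list, led by Mbp at 23.4, 43.4 and 34.3 CPM, summed to 32.8, 64.7 and 47.1 CPM. The part of these cells in the differences between libraries was not tested. For scale on FPKM, the 18 pyramidal neuron genes summed to 4717, 3924 and 5837. Most of that sum came from Nrgn and Cck, and interneurons also make Cck. The 19 microglia and macrophage genes summed to 57.5, 145 and 25.1 FPKM, and the 14 astrocyte genes to 27.2, 65.1 and 36.2 FPKM. Of 17 endothelial and mural genes, 6 had 0 counts in each library, among them Cldn5, Cdh5 and Flt1. That list summed to 50.3 CPM in L1, 48.2 in L2 and 27.9 in L3. Of 8 ependymal and choroid plexus genes, 3 had 0 counts throughout, among them Ttr. That list summed to 93.8, 138 and 72.7 CPM. Of 27 genes of other brain regions, 9 had 0 counts throughout, among them Th, the enzyme of dopamine synthesis, and Hcrt, the hypothalamic orexin precursor. Of 12 lymphoid and antibody genes, 8 had 0 counts throughout, and the 5 erythroid genes summed to at most 0.432 CPM.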

How the data were processed

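RNA of sorted cells was measured in 3 libraries of 9. Listed in the submitters' processing notes are HTSeq 0.6.1, HISAT2 2.0.1, Trimmomatic 0.30, bcl2fastq 2.17.1.14 and the build mm10. The sources used here do not give their roles, the strand setting or the annotation release. Each deposited table holds, per the file headers, the authors' raw read counts and FPKM for each of 51912 genes. Levels of different genes were compared mainly on the deposited FPKM, which followed count and gene length within 0.442% over 5096 genes. List sums in CPM and the minimum mean are not corrected for length. GENCODE M21 held 51719 (99.6%) of the identifiers. How reads matching several genes were counted is unknown, so genes with near-identical copies or overlapping neighbours are uncertain.

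TMM factors over the 3 libraries turned counts into CPM (edgeR 4.0.16, R 4.3.3) and compared as log2(CPM + 1). A gene counted as apart at 2-fold with a mean of at least 10 CPM. Ratios carry exact 95% binomial counting intervals, and a library at 0 was set to 3 counts. With 0 of the samples in a labelled group, no test was run. The calculation was tested on simulated data. The alternatives tried were size factors of DESeq2 1.42.0, scaling by total count, other minimum means and pseudocounts, and leaving out each library.

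Members, 50 gene lists and rules were chosen with earlier results of these data known. Named genes were the 20 most abundant, the 20 of widest difference, the 8 farthest above and 5 farthest below both others in each library, the 4 most abundant and 3 widest of each list, and all members of the peptide, interneuron, CA field, dentate and immediate early lists. Camk2a, Slc17a7, the further receptor and channel subunits, other genes set apart in 1 library, 4 added lists and the promoters of Fos, Nr4a1 and Dusp5 were chosen after their values were seen. Calculations used Python 3.11.15, numpy 2.4.6, pandas 2.3.3, scipy 1.17.1 and matplotlib 3.10.9. Some genes that the rule names are left out here.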

Additional observations from a re-analysis of the deposited data

How the results depend on the processing

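In place of 541 genes, 2832 were apart with no minimum mean, 2107 with a minimum of 1 CPM, 166 with 30 CPM and 293 with a pseudocount of 5 CPM. The numbers above both others in L1, L2 and L3 were 132, 450 and 159 with no minimum, 85, 300 and 97 at 1 CPM, 14, 14 and 7 at 30 CPM, and 18, 29 and 9 with the pseudocount of 5. Those below both were 190, 66 and 444 with no minimum, 182, 62 and 411 at 1 CPM, 17, 11 and 16 at 30 CPM, and 25, 9 and 31 with the pseudocount of 5. With total-count scaling, 10 genes were higher in L3 alone in place of 17. Leaving out 1 library gave 234 to 276 genes apart, since only 2 libraries remain; the 6 counts for a single library need all 3 and could not be recomputed. DESeq2 size factors and a pseudocount of 0.5 CPM left these counts within 1.5 times. Of 109 named genes apart, 109 stayed so with DESeq2 size factors, 104 with total-count scaling and 90 with a pseudocount of 5, and 72, 65 and 62 without L1, L2 or L3. No paired analysis was possible because no library has a labelled group. The 3 libraries limit every statement to these samples, and the depth limits genes near 0.2 CPM.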

Other observations

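Other lists, chosen after the values were seen, separated the libraries too. Because of that choice, their shares beside those of all genes are a description only. Chaperones of the endoplasmic reticulum, which fold secreted and membrane proteins, were lowest in L2 for 14 of 18 genes, against 3289 of all 8941. Hspa5, the chaperone BiP, had 1033 CPM in L1, 596 in L2 and 992 in L3, and Sdf2l1, a cochaperone, 106, 40.7 and 108 CPM. Calr, calreticulin, had 568, 329 and 465 CPM. Of the 18, 3 were apart, among them Sdf2l1 and Creld2, a secreted cochaperone at 86.8, 45.5 and 92.7 CPM. Summed over the list, the level was 5237, 3443 and 4826 CPM.

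Nuclear genes of the respiratory chain and ATP synthase were highest in L3 for 71 of 80, against 3508 of all 8941, with a median of 0.54 above the other libraries on the log2(CPM + 1) scale, but 1 of 80 was apart. Cox6a1, a subunit of complex IV, had 488, 503 and 832 CPM, and Uqcr11, of complex III, 251, 245 and 486 CPM. Atp5b, the beta subunit of ATP synthase, was level at 2028, 1889 and 2028 CPM. Cytosolic ribosomal protein genes were highest in L3 for 61 of 64, with a median of 0.57. Of these genes, 4 were apart, and 1 of the 4, Rpl29, reached the minimum mean only through L3. Short genes as a class were also higher in L3, and the part of length in these lists was not tested. The gene apart among the 80, Ndufs5 at 41.5, 115 and 8.76 CPM, and Rpl29, at 0.908, 6.42 and 37.9 CPM, have near-identical copies, and their values are uncertain.

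Among glycolytic enzymes, which have near-identical copies in the genome, levels were uneven. Gapdh, a glycolytic enzyme usually among the most abundant transcripts, had 0.85, 0.88 and 0.83 FPKM, while Aldoa, another glycolytic enzyme, had 1265, 1398 and 1462 FPKM. Eno1 and its near-identical copy Eno1b took opposite orders, with 756, 1354 and 545 CPM and 205, 57.2 and 513 CPM. The sources used here do not say how the counting divided such reads.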
